A study of Homo sapiens with 2 samples.

Results

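The DEAD and DEAH box RNA helicases are a large family of enzymes that use ATP to unwind RNA or to strip proteins from it, and they act in splicing, ribosome assembly, mRNA export, translation, decay and the sensing of viral RNA. The members described here were the protein-coding genes of GENCODE 29 whose symbol begins with DDX or DHX and a number, off the Y chromosome, without 10 genes (DDX1, DDX3X, DDX6, DDX41, DDX46, DDX39B, DHX8, DHX15, DHX16 and DHX38). This left 44 genes of the 58347 gene rows in the count table, and all 44 were measured. The measurement was U2AF2 eCLIP, in which RNA crosslinked by ultraviolet light to U2AF2 is pulled down with an antibody against that protein and read by sequencing, in 2 biological replicates of HEL, a human erythroleukemia cell line. Both libraries came from untreated cells of the same line and carried no labelled genotype change. The cell line tag of both samples reads U2AF2, while the source name and the descriptions give HEL, and HEL is used here. No input or control library was analysed here, and a count is therefore not an enrichment.

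U2AF2 is the large subunit of the factor that marks the end of an intron. It binds the polypyrimidine tract, a run of C and T bases just before the AG at the 3' splice site. The tables count reads on exons, and no source used here gives the strand setting of that count. Reads of a gene and of a gene on its opposite strand therefore cannot be told apart, so each helicase row is given beside the rows of the genes across from it.

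Counts on genes came to 995428 in replicate 1 and 1350116 in replicate 2. The helicase genes took 1184 counts in replicate 1 (0.119% of the gene counts, exact 95% binomial interval 0.112 to 0.126) and 1644 in replicate 2 (0.122%, 0.116 to 0.128). Levels are given as CPM, counts per 1e+06 of the scaled library. For a row at 0 the floor was set at 3 counts, which is 2.98 CPM in replicate 1 and 2.25 CPM in replicate 2. The exact two-sided 95% Poisson limit of such a row is higher, at 3.69 counts. Intervals and floors cover counting error only. Of 16 erythroid and megakaryocytic marker genes, ALAS2 held the most counts, 65 and 57, and GP1BB and PF4 held 0 in both libraries. These rows hold reads crosslinked to U2AF2, counted with an unknown strand, so they do not measure expression.

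Several helicase introns end beneath an exon of a gene on the other strand, and there a read of the helicase RNA and a read of the other gene fall on the same bases. In all, 11 annotated 3' splice sites of 7 helicase genes lay under such exons. For 4 of the pairs with the most opposite-strand counts, 1 site per pair is shown, on the strand of the helicase RNA. Each run holds the last 27 bases of the intron and the first 3 of the exon, and capitals mark the longest unbroken run of C and T before the AG.
DDX27 under ZNFX1, chr20:49241866-49241895, plus strand: aaatcttatgCTTTCTTCTCatcccagttg
DDX54 under CFAP73, chr12:113159107-113159136, minus strand: gagCTCCCTgaatccctgtcccagcaggtg
DHX32 under BCCIP, chr10:125841932-125841961, minus strand: taaattattaTTTTTTTCCTTTCCTagcac
DDX19B under AC012184.3, chr16:70315942-70315971, plus strand: aattctttgCTTTCTTTTTCCTgacagagg

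The DHX32 site had the longest tract of these, 15 bases, and 90.0% of the 20 bases before its AG were C or T. The DDX27 and DDX19B sites held 85.0% each and the DDX54 site 70.0%. Over 4782 such sites of all protein-coding genes, read in the same way and ending in AG, the median was 75.0% (quartiles 65.0 and 80.0). The helicase sites read here ranged from 70.0% to 90.0%, with a median of 80.0% over 9 sites.

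Some helicase exons in turn lay over 3' splice sites of the gene across from them. Under DDX27 exons were 2 sites of ZNFX1, and the one farther from the middle of its exon held the longest tract of the 11 sites of this kind. It is shown because its tract fills most of the window, and it was chosen after its sequence was seen.
ZNFX1 under DDX27, chr20:49241921-49241950, minus strand: TTCTTCCTTTTCTTCTTTCCTCTTaaggcc
CFAP73 under DDX54, chr12:113157575-113157604, plus strand: atgtgacttcgtgctgggCCCCCCCaggtg
AC026704.1 under DHX29, chr5:55283743-55283772, plus strand: TTTCTTTTCTgcatcactccactccagcca

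In the ZNFX1 site 95.0% of the 20 bases before the AG were C or T, in the CFAP73 site 70.0% and in the AC026704.1 site 80.0%. The 11 sites of this kind ranged from 35.0%, for AC243585.2 under DDX52, to 95.0%, with a median of 75.0%, the same as over 4064 such sites of all protein-coding genes. The DDX27 and ZNFX1 sites printed above lie within 100 bases of each other on opposite strands. A sequence match says nothing of whether U2AF2 was bound there, since the table holds no position of a read within a gene.

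Counts on the helicase genes' own rows were unevenly spread. DDX5 and DDX58 together held 44.8% of the counts of the 44 genes in replicate 1 and 45.1% in replicate 2. The 8 genes with the most counts held 78.2% and 80.1%. A count of 10 or more in both libraries was reached by 16 of the 44 genes (36.4%), against 24.9% of all 19772 protein-coding genes off the Y chromosome. The median was 16 counts over both libraries, against 4 for all protein-coding genes, and 2.36 counts per kb of exon against 0.918. Any count at all was found on 37 genes (84.1%), against 80.0% of all protein-coding genes. The 7 rows at 0 in both libraries were DDX4, DDX10, DDX47, DDX49, DDX50, DHX34 and DHX35.

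**Figure D1:**
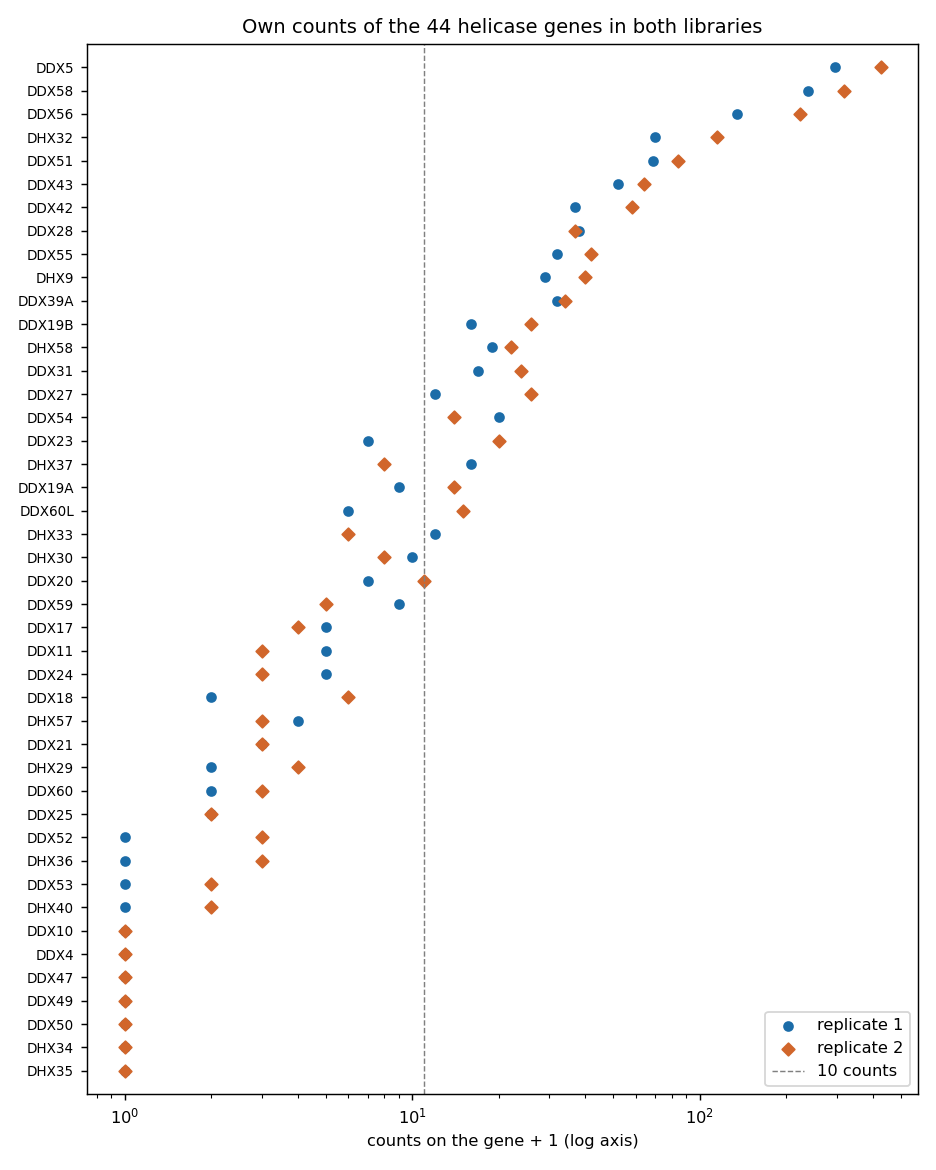
Counts of the 44 helicase genes on their own rows, plus 1, on a log axis, with circles for replicate 1 and diamonds for replicate 2, ordered by mean CPM; where both coincide only the diamond is visible. DDX5, DDX58 and DDX56 hold more than 100 counts in each library, and 7 genes hold 0 in both.

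Among the helicases of splicing and transcription, DDX5 (chromosome 17, 64499616 to 64508199, minus strand, GRCh38), a coregulator of transcription and splicing, held 294 counts in replicate 1 (exact 95% Poisson interval 261 to 330) and 425 in replicate 2 (386 to 467). This was 305 ± 19.2 CPM (SD, n = 2), the highest mean CPM of the 44 genes. Its close paralog DDX17 held 4 and 3 counts, or 3.11 ± 1.21 CPM. Per kb of exon over both libraries, DDX5 held 97.3 counts and DDX17 0.700, which ranked these related genes 2 and 29 of the 44. Reads that map to several places are outside the table, which touches stretches that paralogs share.

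DDX42, which is associated with the U2 snRNP, held 36 and 57 counts (39.2 ± 4.98 CPM, SD, n = 2). DHX9, also called RNA helicase A, held 28 and 39 (28.5 ± 1.05 CPM), and DDX39A, a paralog of the mRNA export helicase DDX39B, held 31 and 33 (27.8 ± 4.24 CPM). Per kb of exon these genes held 10.9, 11.9 and 16.7 counts over both libraries, close to each other and well under DDX5. The U5 snRNP helicase DDX23 held 6 and 19 counts, DDX20, a part of the SMN complex that builds snRNPs, 6 and 10, and the spliceosomal helicase DHX35 held 0 and 0. Altogether 4 of these 8 genes held 10 or more counts in both libraries, and the group's median was 7.76 counts per kb of exon.

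Helicases that sense viral RNA or act against viruses were led by DDX58, which encodes the cytosolic sensor RIG-I. DDX58 (chromosome 9, 32455705 to 32526324, minus strand) held 237 counts in replicate 1 and 316 in replicate 2, which was 236 ± 1.39 CPM (SD, n = 2). The libraries lay close together at 235 and 237 CPM. Per kb of exon DDX58 stood first among the 44 genes, with 127 counts over both libraries, followed by DDX5 with 97.3 and DDX56 with 87.8. DHX58, the related sensor LGP2, held 18 and 21 counts (16.8 ± 1.49 CPM). The other genes of this group were low: DDX60L held 5 and 14 counts, DDX60 1 and 2, and the G-quadruplex helicase DHX36 0 and 2.

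The 16 helicases of ribosome assembly, most of them nucleolar proteins, ranged from 0 to 357 counts over both libraries, with a median of 1.76 per kb of exon. DDX56 (chromosome 7, 44565417 to 44575051, minus strand) led them with 134 and 223 counts, or 150 ± 24.3 CPM (SD, n = 2). DDX51 (chromosome 12, 132136594 to 132144335, minus strand) followed with 68 and 83 counts, or 64.9 ± 3.67 CPM, and DDX55 with 31 and 41, or 30.8 ± 0.00439 CPM. These 3 genes, named as the highest of the group by these same counts, kept this order in both libraries, and the order was not tested. This minimum of 10 in both libraries was reached by 6 of the 16 (37.5%), against 24.9% of all protein-coding genes. The 6 were the 3 named above with DDX27, DDX31 and DDX54. DDX10, DDX47, DDX49 and DDX50 held no counts. For DDX47, 36.5% of the exon bases are shared with APOLD1 on the same strand, and a count by gene leaves reads on such bases out as ambiguous.

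The smaller groups held 1 leading gene each. DDX28, which acts in assembly of the mitochondrial ribosome, held 37 and 36 counts (31.9 ± 6.86 CPM, SD, n = 2), against 9 and 7 for DHX30, which binds mitochondrial RNA. DDX28 is annotated without an intron, as is DDX53, which held 0 and 1. Among the germ line genes DDX43, known as a cancer-testis antigen, held 51 and 63 counts (48.9 ± 2.35 CPM), while DDX25 held 1 and 1, DDX53 0 and 1, and DDX4, the vasa homolog, 0 and 0. DDX43 alone of these 4 reached that minimum.

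DDX19B, which releases mRNA at the nuclear pore, held 15 and 25 counts (16.8 ± 2.74 CPM, SD, n = 2) and its close paralog and neighbor DDX19A 8 and 13 (8.84 ± 1.28 CPM). Both share exon bases with the readthrough gene AC012184.2 on the same strand, 15.7% of the exon bases of DDX19B and 23.8% of those of DDX19A, so their counts are uncertain. The translation initiation helicase DHX29 held 1 and 3 counts, and DHX34, which acts in nonsense-mediated decay, held 0. DHX32, whose function is poorly known, held 69 and 114 counts (77.0 ± 12.1 CPM), against 8 and 4 for DDX59, 3 and 2 for DHX57 and 0 and 1 for DHX40. DDX11, a DNA helicase of sister chromatid cohesion with near-identical copies in the genome, held 4 and 2 counts.

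**Figure D2:**
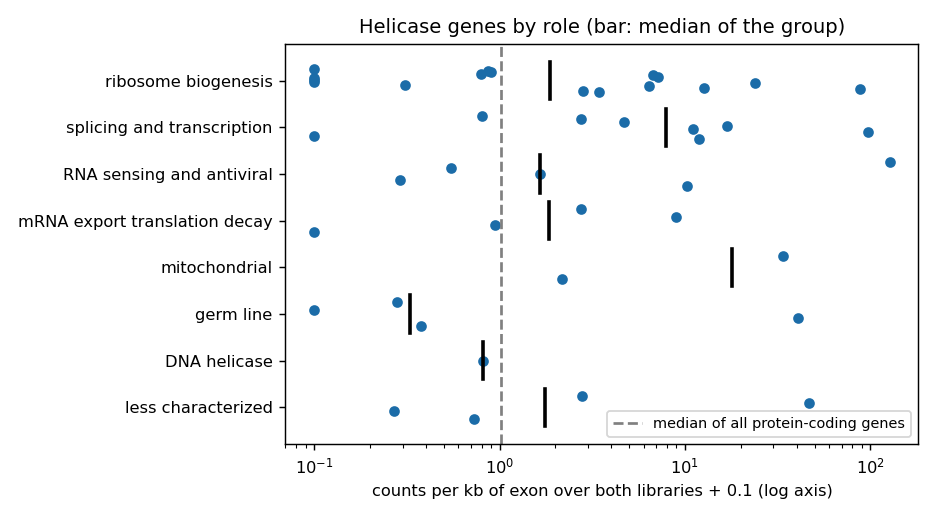
Counts per kb of exon over both libraries, plus 0.1, on a log axis, with 1 point per helicase gene, grouped by known role. Black bars mark group medians, from 0.227 for the germ line genes to 17.9 for the 2 mitochondrial genes, and the dashed line marks the median of all protein-coding genes, 0.918.

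Opposite-strand genes with exon bases inside the span of a helicase gene were then read. They were present for 23 of the 44 genes (52.3%), against 49.3% of all protein-coding genes, and numbered 32, of which 14 were protein-coding. Together they held 1215 counts in replicate 1 and 1690 in replicate 2, close to the helicase rows themselves. The opposite-strand share of the counts on helicase and opposite-strand rows together was 50.6% in replicate 1 (exact 95% binomial interval 48.6 to 52.7). In replicate 2 it was 50.7% (49.0 to 52.4). These are counts of whole genes, and many of the opposite-strand genes extend beyond the helicase. With those that have at least 50% of their exon bases inside it the share was 18.6%. None of these shares was computed over all protein-coding genes.

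More counts on the opposite strand than on the own row were found for 16 of the 44 genes (36.4%), against 28.2% of all protein-coding genes. Among genes with an opposite-strand gene this was 16 of 23 (69.6%) against 57.2%. Some of the 16 rest on few counts or a narrow margin over both libraries. DDX4 held 0 own counts and 1 opposite-strand count, and DHX32 held 183 and 191. With only opposite-strand genes that have at least 50% of their exon bases inside the helicase, 9 of the 44 genes had more opposite-strand than own counts. They were DDX10, DDX11, DDX19B, DDX50, DDX52, DHX29, DHX32, DHX35 and DHX57. For this setting no share over all protein-coding genes was computed, so whether 9 is usual cannot be read. For helicase genes with a protein-coding gene across from them the median of their own counts was 39 (13 genes), for those with only a non-coding gene 3 (10 genes) and for those with none 16 (21 genes). Over all protein-coding genes these medians were 35, 5 and 2.

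**Figure D3:**
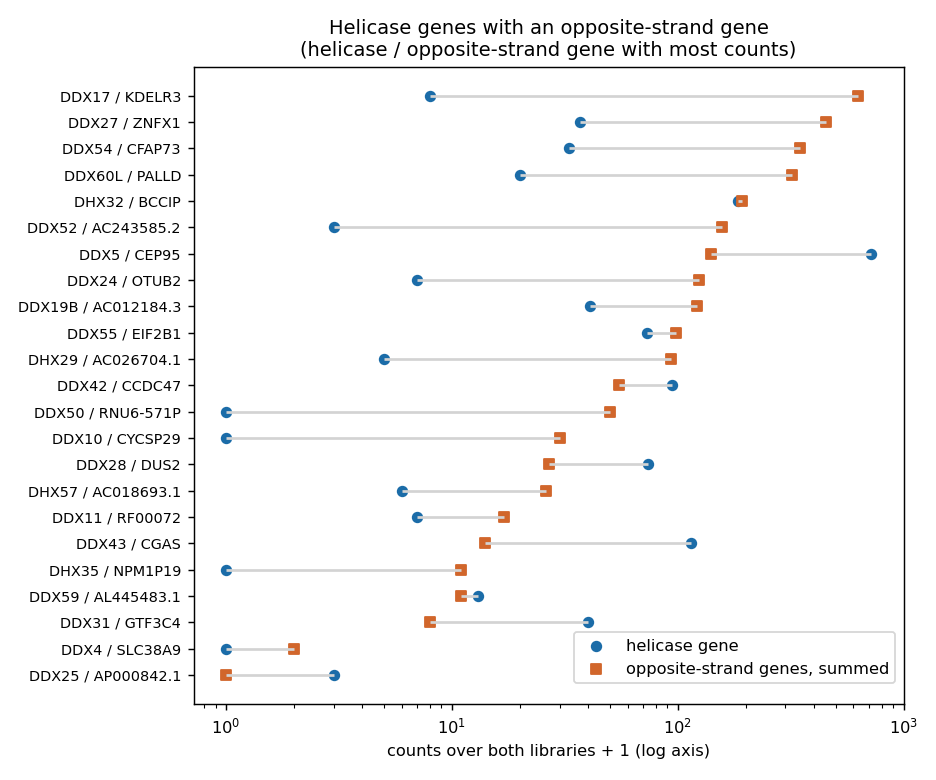
Counts over both libraries, plus 1, on a log axis, for the 23 helicase genes with an opposite-strand gene: circles for the helicase row, squares for all its opposite-strand genes summed, labelled by the helicase and the opposite-strand gene with the most counts. DDX17 and KDELR3 lie farthest apart among the protein-coding pairs in counts, at 7 and 626, and DHX32 and its opposite-strand genes nearly coincide, at 183 and 191.

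The largest opposite-strand count belonged to KDELR3, a receptor that returns proteins to the endoplasmic reticulum, across from DDX17. KDELR3 held 231 and 395 counts while DDX17 held 4 and 3, but only 8 exon bases of KDELR3 (0.415%) lie inside DDX17, where the ends of both genes meet. Without KDELR3 the opposite-strand share was 44.7%. Nearly all the exon bases counted for KDELR3 therefore lie outside the helicase gene.

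ZNFX1, itself a helicase gene with zinc fingers, held 181 and 270 counts across from DDX27, which held 11 and 25. Of its exon bases 15.7% lie inside DDX27 and cover 3 of the DDX27 splice sites. CFAP73, a gene of cilia and flagella, held 170 and 177 counts across from DDX54, which held 19 and 13. Of its exon bases 38.5% lie inside DDX54 and cover 2 annotated DDX54 splice sites, 3 bases apart. In both pairs the opposite-strand gene was the higher in each library. PALLD, an actin-associated protein gene, held 119 and 188 counts across from DDX60L, which held 5 and 14, without any shared exon base.

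BCCIP, a gene of DNA repair and cell cycle control, held 86 and 103 counts across from DHX32, which held 69 and 114. The order of this pair differed between the libraries. CEP95, a centrosome gene that overlaps DDX5 head to head, held 53 and 87 counts against 294 and 425 for DDX5, so here the helicase row was the higher in both. OTUB2, a deubiquitinase gene, held 53 and 70 counts across from DDX24, which held 4 and 2. EIF2B1, a translation initiation factor gene, held 51 and 46 across from DDX55 with 31 and 41, and CCDC47 held 21 and 33 across from DDX42 with 36 and 57. DUS2, a tRNA-modifying enzyme gene within which DDX28 is nested, held 10 and 16 against 37 and 36 for DDX28.

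Non-coding genes inside helicase genes gave a further set of values. AC243585.2, an antisense RNA gene of 508 exon bases that lies entirely inside DDX52, held 46 and 51 counts, and AC243571.2, also across from DDX52, held 31 and 28, while DDX52 held 0 and 2. AC026704.1 held 31 and 61 counts across from DHX29, which held 1 and 3, and AC012184.3 held 59 and 62 across from DDX19B, which held 15 and 25. In all these pairs the non-coding row stood above the helicase row in both libraries. RNU6-571P, a copy of the U6 snRNA gene of 107 bases inside DDX50, held 20 and 29 counts, or 458 per kb of exon, the most of the 32 opposite-strand genes, while DDX50 held 0. Reads mapping to several places are outside the table, so the row of a gene with many copies is uncertain.

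Because U2AF2 acts at 3' splice sites, opposite-strand genes were divided by whether their exons cover such a site of the helicase. The 7 that do held a median of 80.2 counts per kb of exon over both libraries (2.89 to 201), and the 25 that do not held 14.0 (0 to 458). The minimum of 10 in both libraries was met by 6 of the 7 (85.7%) and by 10 of the 25 (40.0%), against 63.0% and 33.8% over all protein-coding genes. The gene at 2.89 was CGAS, the DNA sensor gene across from DDX43, with 5 and 7 counts although it covers 2 DDX43 splice sites. The ranges overlapped, and the means were 97.8 and 52.9 per kb, a ratio of 1.85. Over all protein-coding genes the means lay farther apart, at 210 and 55.7. The corresponding medians for all protein-coding genes were 30.2 for 3062 covering genes and 7.59 for 11167 others. Genes are not replicates, so these values carry no test.

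Opposite-strand protein-coding genes that lie up to 1000 bases from a helicase gene without overlapping it were read as well, a comparison chosen after the counts were seen. Neighbors that begin near the start of a helicase gene, back to back with it, held almost no counts. The median of these 9 genes was 1 count (0 to 18), and 0 of 9 reached 10 in both libraries, against 26.4% of 1452 such neighbors of all protein-coding genes. They were AARS, IFI27L1, PUS3, COPE, NOC4L, RITA1, MTREX, FANK1 and MORN2.

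Neighbors whose end faces the end of a helicase gene held more. These 6 genes had a median of 228.5 counts (21 to 1974), and 5 of 6 (83.3%) reached 10 in both libraries, against 53.4% of 1008 such neighbors of all protein-coding genes. FTSJ3, an rRNA processing gene 115 bases beyond DDX42, held 841 and 1133 counts. ACO1, which encodes iron regulatory protein 1 and lies 935 bases beyond DDX58, held 355 and 487, beside 237 and 316 for DDX58. MAP4 near DHX30 held 118 and 130, ADGRE5 near DDX39A 86 and 123, CACNB3 near DDX23 63 and 49, and HOMER3 near DDX49 8 and 13. The 2 sets of neighbors did not overlap in counts summed over both libraries, but came close, at most 18 and at least 21. Within each library they were not separate. In replicate 2 PUS3, by a start, held 15 and HOMER3, by an end, held 13. In replicate 1 MTREX, by a start, and HOMER3 both held 8. Over all protein-coding genes the ranges of such neighbors overlapped, at 0 to 3971 (median 5) by the start and 0 to 4018 (median 27.5) by the end. These counts lie on the whole neighbor gene, and how many fall near the helicase was not tested.

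**Figure D4:**
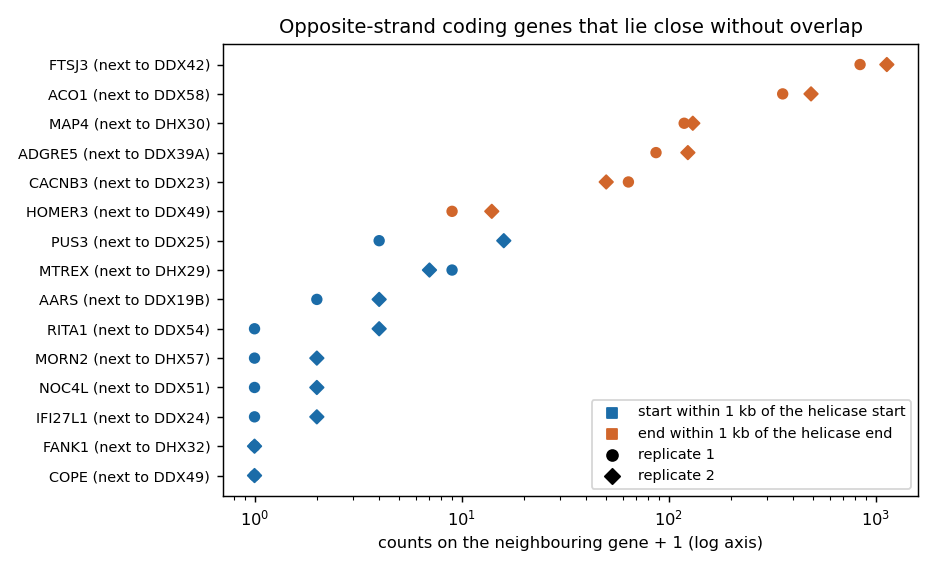
Counts, plus 1, on a log axis, on opposite-strand protein-coding genes that lie within 1000 bases of a helicase gene without overlap, with circles for replicate 1 and diamonds for replicate 2. Blue marks 9 neighbors next to the helicase start, with at most 18 counts over both libraries, and orange marks 6 neighbors next to the helicase end, with at least 21. Within each library the sets meet or overlap.

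Among overlapping coding pairs the median count of the partner also lay higher at the ends, at 189 (12 to 626) for 7 partners tail to tail with a helicase and 30.5 (1 to 307) for 6 head to head, and the ranges overlapped. The helicase genes' own counts had medians of 36 (6 to 183) and 66 (0 to 719) in these sets. Over all protein-coding genes, where each gene of a pair is also a partner, the medians were 73 tail to tail and 26 head to head. DDX43 is in both helicase sets, since OOEP overlaps its start and CGAS its end.

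The replicates were compared gene by gene by an exact conditional binomial test, two-sided, over the 8983 genes that met the minimum of 10 in both. None of the 16 helicase genes tested passed, against 0.501% of all genes tested, and 1 had an unadjusted p below 0.05, as had 8.56% of all genes tested. That gene was DDX56, with 134 and 223 counts (log2 ratio of replicate 2 to replicate 1 of 0.33, exact p = 0.0370, Benjamini-Hochberg adjusted p = 0.524). The log2 ratios of the 16 genes ran from -0.93 for DDX54, with 19 and 13 counts, to 0.75 for DDX27, with 11 and 25. Neither of these genes passed, and whether a difference of that size could be detected at such depths was not tested. Only counting error between these 2 libraries enters the test.

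RNA helicase genes whose symbols do not begin with DDX or DHX had a lower median per length. The 22 other RNA helicase genes had a median of 0.932 counts per kb of exon, and 4 of 22 (18.2%) met the minimum of 10 in both libraries, against 2.36 per kb and 36.4% for the 44 genes. ZNFX1 held the most, followed by the antiviral helicase MOV10, with 48.3 and 16.3 counts per kb. The translation initiation helicase EIF4A1 held 2.26 and the nonsense-mediated decay helicase UPF1 1.16. The 10 DDX and DHX genes left out of the set had a median of 3.70 per kb, led by DHX38 with 101 counts in replicate 1 and 33.0 counts per kb over both libraries. DDX3X held 1.01 per kb and DDX39B 0.143. These lists are described by their values only.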

How the data were processed

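The authors deposited unnormalized whole-number counts by gene, 1 column a library, and 4 tally rows for reads that no gene received, which were left out of all totals. The submitters' processing notes name cutadapt, STAR 2.7.0f and the build GRCh38.p10. No source used here gives the strand setting, annotation release or duplicate removal. Genes received 2.66% and 2.60% of the uniquely mapped reads.

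Genes were matched by Ensembl identifier to GENCODE 29 (GRCh38), and 263 rows had no model. Libraries were scaled by TMM in edgeR 4.0.16 under R 4.3.3 (factors 1.01 and 0.987), over genes with 10 or more counts in both. DESeq2 1.42.0 gave alternative size factors, and a prior count of 2 entered log2 CPM. With 1 group, the quasi-likelihood test was not used. The replicate test was tried on simulated counts whose spread was counting error only, as the test assumes. Such counts cannot show how the test behaves where replicates differ by more than counting error. Exons were merged over transcripts, and gaps under 30 bases were not taken as introns. Splice site sequences were read from GENCODE 29 transcript sequences. Other steps used Python 3.11.15, numpy 2.4.6, scipy 1.17.1, pandas 2.3.3 and matplotlib 3.10.9.

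Members, role lists and tests were chosen with earlier results of these data known. Named were the 8 genes highest in CPM, the 8 with most opposite-strand counts, the 2 highest of each role list, genes passing the replicate test and, as a group, genes at 0. Other genes were named after their values had been seen. The p-values set the difference between these 2 libraries against counting error only and do not measure the spread between replicates.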

Additional observations from a re-analysis of the deposited data

How the results depend on the processing

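The number of helicase genes with 10 or more counts in both libraries was 16, 23 with a minimum of 5, 11 with a minimum of 20, and 18 to 20 from 1 replicate alone. Their median of 3.06 log2 CPM was the same with DESeq2 size factors and with gene count totals, 2.81 with a prior count of 0.5, 5.04 among genes that met the minimum of 10, and 2.62 to 2.94 from 1 replicate alone. No helicase gene passed the exact replicate test under any scaling or count minimum tried, where 0 to 3 had an unadjusted p below 0.05. The number with more opposite-strand than own counts was 16, but 10 where opposite exons had to overlap helicase exons, 12 where the opposite span had to cover them, 9 with at least 50% of the opposite exons inside the helicase, 8 with non-coding genes only, and 15 to 16 from 1 replicate alone. In the same order, the opposite-strand share of 50.7% was 46.7%, 49.6%, 18.6%, 15.7% and 50.6% to 50.7%, and it was 44.7% without KDELR3, a setting added once the data had been seen. Of these counts and shares, only the main count of 16 was set beside all protein-coding genes. The ratio of 1.85 for genes that cover a splice site was 1.41 with sites of protein-coding transcripts, 2.23 with non-coding genes, 1.61 with at least 50% of exons inside, 2.71 without RNU6-571P, also chosen after the data were seen, and 1.71 to 2.04 from 1 replicate alone. Scaling moved the level of each of the 21 named genes by at most 1.20%. No paired analysis was possible because the samples form 1 group, and the replicate test cannot leave out a replicate. Depth limits genes below 10 counts, whose order is uncertain.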
